A study of Mus musculus with 19 samples.

Results

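Normal mouse aorta was compared with skeletal muscle across all genes that a mouse Affymetrix array reports under a single symbol. The comparison used 12 wild type arrays of the 19 in the series. They were 4 arrays of aorta, 4 of the quadriceps femoris, a thigh muscle, and 4 of the sternocleidomastoid, a neck muscle. Every array had its own sample, and all 3 groups came from wild type mice on a mixed background of C57Bl/6 and 129X1/SvJ. The other 7 arrays were angiosarcomas from mice with a Dicer deletion. They entered an alternative fit and helped to choose the probe set of genes that have several, and no aorta or muscle mean includes them. The normal tissues were the study's reference for those tumors, and here they were set against each other. For each gene the mean of the aortas was compared with the mean of both muscle groups, each muscle weighted equally. The labels gave no age, sex, animal or batch. The spread behind each p-value is thus only that among the deposited samples, and it may be technical.

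The aorta is an elastic artery. Its wall holds an endothelial lining, a thick middle layer of smooth muscle cells between sheets of elastin, and an outer layer of connective tissue, nerve and fat. Skeletal muscle is made of long fused fibres packed with sarcomeres, which contract when a motor nerve releases calcium from the sarcoplasmic reticulum. Both tissues contract with actin and myosin, but smooth muscle is switched on by phosphorylation of the myosin light chain and striated muscle by calcium binding to troponin. In whole tissue, fewer cells of a type and less RNA per cell cannot be told apart.

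The median log2 value of an array was 5.35 to 5.45, and single values ran from 1.59 to 13.6. A group mean under 5.35 is called dim below, since there the size of a difference is limited by the dim group. Replicates correlated across genes at r = 0.983 to 0.994 within groups, aorta with quadriceps at 0.909 to 0.94, and aorta with sternocleidomastoid at 0.916 to 0.941. On the first principal component, with 72.2% of the variance, the aortas lay at 66.6 to 74.4, the quadriceps at -45.4 to -23.7 and the sternocleidomastoid samples at -40.8 to -24.5. Some arrays stood apart in markers of other cell types. Aortas 1 and 3 carried more skeletal sarcomere signal than aortas 2 and 4. Aortas 1 and 2 carried more lymphocyte signal, and aortas 2 and 3 more signal of neuron and ganglion markers. Quadriceps 4 carried more fat signal than the other quadriceps. These values are given beside the results they touch.

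Of 22180 genes, 8891 differed (40.1%) at a limma adjusted p under 0.05, with 4927 higher in aorta (22.2%) and 3964 lower (17.9%). The count of each gene list below is to be read beside these shares. Adjustment was by Benjamini-Hochberg over all genes, and a difference is given as aorta minus muscle on the log2 scale with its standard error, so that 1 unit is a 2-fold difference. With each array centred on a list of 17 housekeeping genes, the same split was 3666 higher and 5260 lower, and that centring moved the median gene by -0.1. Those 17 genes were not all level between the tissues. Before the centring 7 of them were higher in aorta and 5 lower, 1 at least 2-fold higher. At least 2-fold differences were found for 1084 higher (4.89%) and 942 lower genes (4.25%). The largest differences lay mostly on the lower side. Differences of at least 2 log2 units were counted in 231 higher (1.04%) and 357 lower genes (1.61%), and of at least 3 in 49 (0.221%) and 177 (0.798%). At 4 units the counts were 12 (0.0541%) and 82 (0.37%), and at 5 units 4 (0.018%) and 28 (0.126%). All 4 aortas lay above all 8 muscles for 3244 genes (14.6%) and below them for 2798 (12.6%). Against each muscle taken alone, 3674 genes were higher in both comparisons (16.6%) and 2988 were lower in both (13.5%), which share their aorta arrays. Taken alone, the comparison with quadriceps called 36.9% of genes, 20.1% higher and 16.7% lower, and at 2-fold 5.42% and 4.51%. The comparison with sternocleidomastoid called 35.3%, 19.6% higher and 15.7% lower, and at 2-fold 4.46% and 4.07%. The muscles differed from each other in 1.26% of genes, with 0.789% higher and 0.469% lower in sternocleidomastoid, and at 2-fold 0.243% and 0.117%. Only 12 genes (0.0541%) were called in opposite directions against the muscles.

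The largest difference towards aorta was in Myl7, the atrial form of myosin regulatory light chain, at 6.56 ± 0.14. It was followed by Itga8, an integrin chain of smooth muscle (5.45 ± 0.10), Cnn1, the smooth muscle calponin (5.06 ± 0.13), and Tnni3, cardiac troponin I (5.02 ± 0.15). The largest difference towards muscle was in Myh4, the fastest myosin heavy chain (-7.79 ± 0.16), followed by the fast myosin-binding protein Mybpc2 (-6.64 ± 0.18) and the calcium buffer Pvalb (-6.62 ± 0.24). Among the 15 largest differences towards aorta, smooth muscle genes stood beside heart muscle genes (Myl7, Tnni3, Myh6, Sln, Tnnt2, Nppa) and brown fat genes (Elovl3, Ucp1, Slc27a2). Hamp, which encodes the iron hormone hepcidin, was higher by 4.63 ± 0.23. Its aortas read 6.81, 8.05, 7.16 and 8.40, and its muscles were dim, from 2.69 to 3.18 with a median of 3.01. The groups did not overlap.

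**Figure D1:**
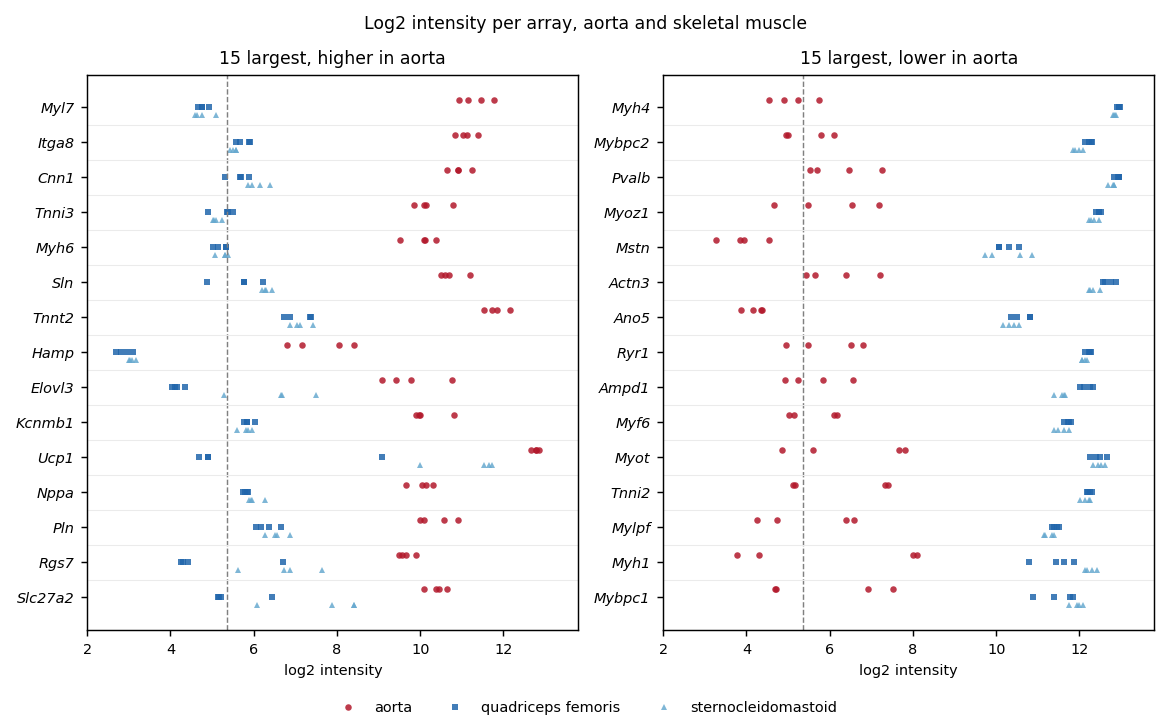
Log2 intensity on each array for the 15 largest differences in each direction, 4 aortas (circles), 4 quadriceps (squares) and 4 sternocleidomastoid samples (triangles); the dashed line is the lowest array median, 5.35. Myl7 lies at 10.94 to 11.78 in the aortas and 4.58 to 5.1 in the muscles, while Myh4 lies at 4.53 to 5.75 and 12.80 to 12.97.

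Genes of the smooth muscle contractile apparatus were mostly higher in aorta. Of 21 measured members, 16 were higher in aorta and 3 lower, with a median difference of 1.85 against 0.01 over all genes. All 16 were at least 2-fold higher, and for all 16 every aorta lay above every muscle. Among all genes 4.89% were called at least 2-fold higher, and 14.6% had every aorta above every muscle. The list mean was 9.29 to 9.69 in the aortas and 7.53 to 7.73 in the muscles, so the labelled tissue carried its defining markers on each of the 4 arrays. Itga8 read 11.02, 11.38, 11.13 and 10.84 in aortas 1 to 4, and 5.44 to 5.90 in the muscles with a median of 5.58. The difference was 43.8-fold (adjusted p = 1.1e-13). Cnn1, which binds actin and slows the myosin cycle, read 10.91, 11.24, 10.91 and 10.65 against 5.30 to 6.39 with a median of 5.87, a 33.4-fold difference (adjusted p = 1.71e-12). For both genes the gap between the groups was several times the spread within either.

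Myh11, the smooth muscle myosin heavy chain, read 11.05, 11.41, 11.17 and 10.90 in the aortas and 7.32 to 7.85 in the muscles (median 7.42), a difference of 3.66 ± 0.11 (adjusted p = 5.27e-12). Tagln, the actin-binding protein transgelin, was higher by 3.34 ± 0.10, and Pln, the small inhibitor of the SERCA calcium pump, by 3.96 ± 0.17. Phospholamban is also a heart protein, and the heart list is described further on. The lower members were Synm, a synemin filament protein of the sarcomere's edge (-2.84 ± 0.11), Tpm2, a tropomyosin shared with skeletal muscle (-2.66 ± 0.12), and the heat shock protein Hspb1 (-0.81 ± 0.10). Those 3 also serve striated muscle.

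**Figure D2:**
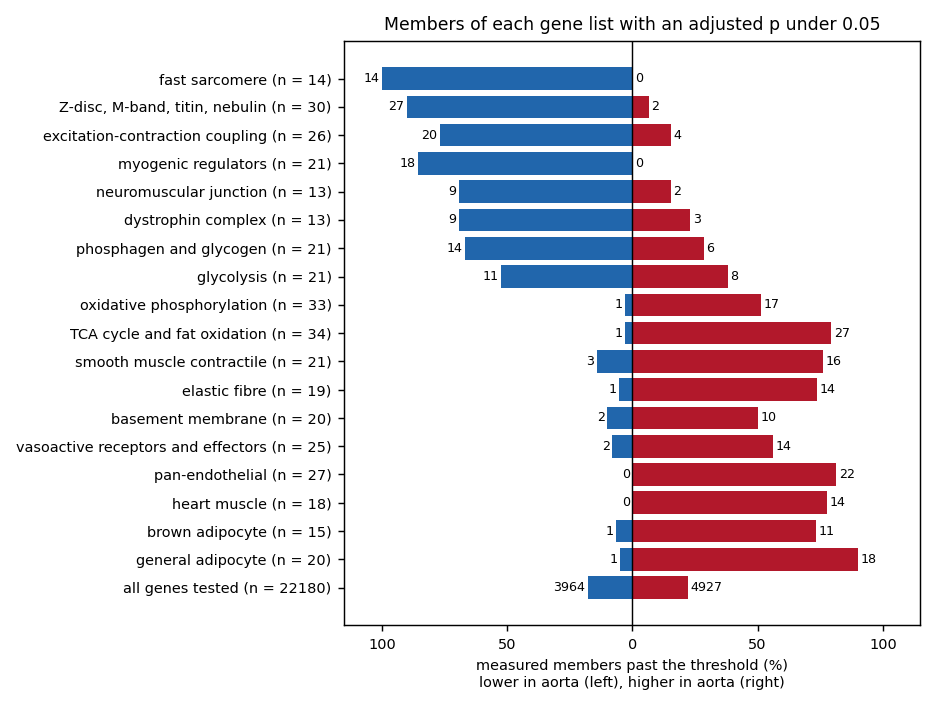
Share of the measured members of each gene list that were lower (left, blue) or higher (right, red) in aorta at an adjusted p under 0.05, with the number of members written at each bar and all 22180 genes in the last row. All 14 fast sarcomere genes were lower and 16 of 21 smooth muscle genes were higher, against 17.9% and 22.2% of all genes.

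The transcription factors known to drive these programmes split by direction. Of 19 measured factors of serum response factor and vascular identity, 8 were higher and 6 lower in aorta (median 0.14). Myocd, the smooth muscle and cardiac coactivator of serum response factor, read 8.44, 8.95, 8.50 and 8.08 in the aortas and 5.32 to 5.72 in the muscles (median 5.50), a 7.81-fold difference (adjusted p = 3.26e-10). Gata6 was higher by 2.85 ± 0.17 with both muscles dim, Tbx18 by 1.48 ± 0.11, Foxc2 by 1.20 ± 0.10 and Foxc1 by 1.0 ± 0.10. Serum response factor itself, Srf, was on the other side. It read 7.94, 8.04, 7.86 and 7.98 in the aortas and 9.02 to 9.45 in the muscles (median 9.28), a difference of -1.29 ± 0.08 with no overlap. Its actin-sensing coactivators Mrtfa (-0.66 ± 0.09) and Mrtfb (-0.56 ± 0.09) were lower as well, together with Klf5 (-1.23 ± 0.17) and Tead1, a DNA-binding partner of the YAP pathway (-1.63 ± 0.07).

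The elastic fibre genes were mostly higher in aorta, 14 of 19 with 1 lower and a median of 0.83. Eln, the elastin precursor itself, read 10.13, 10.17, 9.73 and 7.98 in aortas 1 to 4 and 5.97 to 7.03 in the muscles (median 6.56). Aorta 4 was the lowest of its group and still lay above every muscle, and the difference was 2.96 ± 0.34 (adjusted p = 7.81e-06). Ltbp1 (1.94 ± 0.10) and Ltbp2 (1.66 ± 0.12), which store latent TGF-beta on microfibrils, Fbln5, which guides elastin assembly (1.90 ± 0.14), and Mfap4 (1.75 ± 0.17) followed. The 1 lower member, the lysyl oxidase Loxl4, differed by -0.19 ± 0.07 (adjusted p = 0.0337) and lost its call when all 19 arrays were fitted.

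Other matrix genes differed less. Of 20 fibrillar and associated collagens, 10 were higher and 3 lower (median 0.28), but only 2 were 2-fold higher. Those were Col18a1, the source of endostatin (1.52 ± 0.14), and Col14a1 (1.42 ± 0.16). The abundant type I and III chains overlapped between tissues. Col1a1 read 10.59, 10.59, 10.43 and 9.33 in the aortas and 8.69 to 10.29 in the muscles, and its difference of 0.83 ± 0.28 (adjusted p = 0.0313) was among the calls that depended on single arrays. With either pair of aortas left out (1 and 3, or 1 and 2), only 2 collagens remained counted as higher. Of 20 basement membrane genes, 10 were higher and 2 lower (median 0.39). Lama4, the laminin chain of vessel walls, was higher by 1.26 ± 0.17, Agrn by 1.08 ± 0.09, Col4a6 by 1.08 ± 0.11 and Col4a5 by 1.01 ± 0.08. Lama2, the laminin chain that surrounds muscle fibres, was lower (-0.46 ± 0.11), a call lost when all 19 arrays were fitted.

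Small proteoglycans and matricellular proteins gave 15 of 25 higher and 3 lower (median 0.64). Bgn, the proteoglycan biglycan, read 12, 12.30, 12.18 and 11.87 against 9.71 to 10.37 (median 9.98), a 4.16-fold difference (adjusted p = 4.32e-09). Postn, periostin, was higher by 2.86 ± 0.27, and the calcium-binding Smoc1 by 2.36 ± 0.26. Mgp, the matrix protein that keeps arteries from calcifying, was higher by 2.24 ± 0.22, and the growth factor Ccn2 by 2.17 ± 0.28. Averaged over its probe sets Ccn2 differed by 1.13, and its other, dim probe set had no call (limma adjusted p = 0.661). The largest difference towards muscle was in Thbs4, a thrombospondin of tendon and muscle attachments. Its aortas read 6.03, 5.81, 6.11 and 5.88, its quadriceps 10.03, 9.67, 8.87 and 7.64, and its sternocleidomastoid samples 8.78, 8.69, 8.31 and 7.86. The groups did not overlap, and the difference was -2.77 ± 0.33, but a wide spread among the quadriceps ran through the tendon genes in general. The mean of 11 tenocyte markers was 7.77, 7.30, 6.92 and 6.11 in quadriceps 1 to 4, 5.91 to 6.55 in the sternocleidomastoid and 5.75 to 5.92 in the aortas. The part of attached tendon in these values was not tested.

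Genes that set vessel tone were more often higher. Of 25 vasoactive receptors and effectors, 14 were higher and 2 lower (median 0.47). Both subunits of the nitric oxide receptor were among them, Gucy1b1 at 1.95 ± 0.14 and Gucy1a1 at 1.90 ± 0.11. Pde5a, which breaks down the cyclic GMP that this receptor makes, read 8.59, 9.25, 8.99 and 9.09 against 5.98 to 6.57 (median 6.18), a 6.69-fold difference (adjusted p = 3.99e-10). Ptgis, prostacyclin synthase, was higher by 2.21 ± 0.13, and the phosphodiesterase Pde3a by 2.13 ± 0.13. Prkg1, the kinase that cyclic GMP activates, was not higher. It read 6.89, 7.42, 6.79 and 6.98 in the aortas and overlapped the muscles, with a difference of -0.41 ± 0.13 that was -0.01 against quadriceps and -0.80 against sternocleidomastoid. Ramp1, a subunit of the CGRP receptor, was lower (-0.52 ± 0.10).

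Ion channels and pumps of the smooth muscle membrane divided likewise, 11 of 21 higher and 5 lower (median 0.43). Kcnmb1, the smooth muscle subunit that makes the large potassium channel sensitive to calcium, read 9.90, 10.82, 9.99 and 9.97 in the aortas and 5.59 to 6.03 in the muscles (median 5.83), a 20.2-fold difference (adjusted p = 2.38e-11). The pore of the same channel, Kcnma1, went the other way, with aortas at 7.60 to 8.06 and muscles at 8.92 to 9.88, a difference of -1.68 ± 0.11. Averaged over its probe sets Kcnma1 differed by -0.79, in the same direction. The calcium-activated chloride channel Ano1 (2.25 ± 0.16) and the calcium channel pore Cacna1c (1.40 ± 0.10) were higher. The potassium channel Kcnq5 (-1.80 ± 0.13, or -1.18 averaged over its probe sets), the sodium pump subunit Atp1b1 (-1.35 ± 0.14) and Abcc9, the sulfonylurea receptor of the ATP-sensitive channel (-0.95 ± 0.08), were lower.

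Among signalling genes, 10 of 16 Notch members were higher and 1 lower (median 0.32), and 11 of 22 TGF-beta and BMP members were higher and 3 lower (median 0.27). Hey2, a Notch target of arterial cells, read 7.86, 8.55, 8.05 and 8.18 against 5.44 to 6.00 (median 5.77), a 5.35-fold difference (adjusted p = 1.97e-09). The receptor Notch2 (1.04 ± 0.11) and the ligand Jag1 (1.03 ± 0.17) were higher, and the ligand Jag2 was lower (-1.16 ± 0.10). The BMP targets Id1 and Id3 were each higher by 1.07 (SE 0.14 and 0.12), and Smad3, the carrier of the TGF-beta signal, was lower (-1.38 ± 0.10).

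Endothelial markers were higher in aorta in most cases but by small amounts. Of 27 pan-endothelial genes, 22 were higher and 0 lower by limma at an adjusted p under 0.05, with a median of 0.51, and 2 were 2-fold higher. Pecam1, the junction molecule CD31, read 9.74, 9.75, 9.66 and 9.57 in the aortas and 8.29 to 9.09 in the muscles (median 8.60), a 2.02-fold difference (adjusted p = 5.78e-06). The VEGF receptor Kdr (1.01 ± 0.09), von Willebrand factor Vwf (0.97 ± 0.09) and the ETS factors Erg (0.86 ± 0.10) and Ets1 (0.78 ± 0.13) were next. Arterial markers gave 11 of 20 higher, capillary markers 13 of 20 with 1 lower, venous markers 6 of 10 and lymphatic markers 3 of 9 with 2 lower. Among all genes 22.2% were higher and 17.9% lower, so the lymphatic counts alone do not set that list apart. The lower members were Sgk1 in the capillary list and Tbx1 and Reln in the lymphatic list. The capillary list was led by Aqp7, a glycerol channel that fat cells also use (2.04 ± 0.23). Whether the arterial, capillary and venous lists differ from one another was not tested. Pericyte markers gave 5 of 12 higher and 3 lower. Mcam (2.07 ± 0.18) and Cspg4 (1.64 ± 0.11), which smooth muscle shares, were higher, and Vtn, Abcc9 and Ndufa4l2 were lower. Fibroblast markers gave 3 of 14 higher and 2 lower (median 0.13), close to the share among all genes.

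On the muscle side the fast sarcomere stood out. All 14 measured members were lower in aorta, with a median of -5.35, and no aorta reached the level of any muscle for any of them. Among all genes 12.6% had every aorta below every muscle. Without aortas 1 and 3, an alternative chosen after seeing the data, all 14 were still lower. Those aortas had the higher mean of this list, so that count is no further result. Myh4 read 5.23, 4.53, 5.75 and 4.90 in the aortas, a dim mean, and 12.80 to 12.97 in the muscles (median 12.89). Fast troponin I, Tnni2, was lower (-5.95 ± 0.38) as was the fast light chain Mylpf (-5.86 ± 0.34). The 4 aortas fell into pairs here. Acta1, skeletal alpha-actin, read 10.07 and 9.74 in aortas 1 and 3 but 5.65 and 6.15 in aortas 2 and 4, against 12.87 to 12.99 in the muscles. Myh1, the myosin of another fast fibre type, read 8.0 and 8.10 in that first pair and 3.78 and 4.30 in the second. The list mean was 7.79 and 7.71 in aortas 1 and 3, 6.20 and 6.27 in aortas 2 and 4, and 11.78 to 12.12 in the muscles. Without aortas 1 and 3 the difference grew from -5.05 to -7.05 for Acta1 and from -5.79 to -7.80 for Myh1. Both genes read higher in aortas 1 and 3, so the growth follows from leaving those out and is no further result. The part of attached skeletal muscle in aortas 1 and 3 was not tested.

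Promoters of 4 of these genes are shown with matches to motifs bound by the factors above. The sequences are from RefSeq, GRCm38.p6, and each runs 5′ to 3′ in the direction of the gene. Capitals mark a strict CArG box (a site of serum response factor), a MEF2 site or the E-box CAGCTG (a site of the MyoD family), searched on both strands. The strict CArG code asks for A or T at every base between CC and GG. Myh4 (chr11:67237562-67237811, plus strand) and Acta1 (chr8:123894776-123895025, minus strand) were lower in aorta. Acta2, smooth muscle alpha-actin (chr19:34255374-34255623, minus strand), and Myl7 (chr11:5898783-5899032, minus strand) were higher.
Myh4 promoter, 250 bases before the start: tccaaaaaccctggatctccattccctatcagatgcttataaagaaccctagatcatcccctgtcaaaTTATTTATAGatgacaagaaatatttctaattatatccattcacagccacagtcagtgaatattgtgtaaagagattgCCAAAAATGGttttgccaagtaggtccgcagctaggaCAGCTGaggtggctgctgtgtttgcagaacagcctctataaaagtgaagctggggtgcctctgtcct
Acta1 promoter, 250 bases before the start: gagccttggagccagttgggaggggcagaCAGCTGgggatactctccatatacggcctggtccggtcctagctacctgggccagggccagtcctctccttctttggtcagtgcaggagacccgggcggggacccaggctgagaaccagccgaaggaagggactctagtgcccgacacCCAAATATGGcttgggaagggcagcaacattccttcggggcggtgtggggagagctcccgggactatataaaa
Acta2 promoter, 250 bases before the start: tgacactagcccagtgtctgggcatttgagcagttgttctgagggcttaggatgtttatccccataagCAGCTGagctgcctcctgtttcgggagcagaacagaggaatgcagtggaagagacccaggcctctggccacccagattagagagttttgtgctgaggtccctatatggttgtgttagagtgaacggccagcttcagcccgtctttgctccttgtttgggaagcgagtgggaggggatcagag
Myl7 promoter, 250 bases before the start: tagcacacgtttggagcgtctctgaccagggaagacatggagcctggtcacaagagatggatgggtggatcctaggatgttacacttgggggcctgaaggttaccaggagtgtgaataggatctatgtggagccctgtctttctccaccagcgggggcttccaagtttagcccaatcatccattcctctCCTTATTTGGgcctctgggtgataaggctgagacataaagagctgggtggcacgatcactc
In these windows Myh4 held all 3 motifs, Acta1 a strict CArG box and an E-box, Acta2 an E-box and Myl7 a strict CArG box. Acta2 also held ccctatatgg and ccttgtttgg, each with 1 base outside the strict code, and these were not counted. The absence of a strict match thus does not mean that a site is absent. The CArG counts that follow are of strict matches too. In windows from 250 bases before to 50 after the start, 5 of 10 fast sarcomere promoters held CAGCTG, 3 a MEF2 site and 2 a CArG box. Of 18 smooth muscle promoters 4 held CAGCTG, 1 a MEF2 site and 1 a CArG box, and of 16 heart muscle promoters 5, 1 and 3 did. Among all 27025 promoters of that length 16.1% held CAGCTG, 3.26% a MEF2 site and 1.57% a CArG box. A match describes these letters only, and regulatory sites outside the window were not searched.

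Slow and cardiac-shared sarcomere genes did not move as a block, with 3 of 14 higher, 5 lower and a median of -0.37. Among all genes 22.2% were higher and 17.9% lower. Mybpc1, the slow myosin-binding protein (-5.75 ± 0.45), Ankrd2 (-4.45 ± 0.39) and Actn2 (-2.49 ± 0.25) were lower. Tnnc1, the troponin C of slow and heart muscle (2.41 ± 0.28), and Atp2a2, the calcium pump of heart and smooth muscle (2.26 ± 0.12), were higher. Of 30 genes of the Z-disc, M-band, titin and nebulin, 27 were lower and 2 higher (median -2.55). Neb, nebulin, read 8.14, 5.26, 7.98 and 6.08 against 12.49 to 12.69 (median 12.59), a difference of -5.72 ± 0.41. The calsarcin Myoz1 (-6.43 ± 0.33) and myotilin, Myot (-5.98 ± 0.43), showed the same pairing of the aortas, with Myot at 7.80 and 7.67 in aortas 1 and 3 and 4.85 and 5.59 in the others. Nebl, the heart's nebulin relative, was higher (1.37 ± 0.19, both muscles dim), as was Pdlim5 (0.63 ± 0.17).

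Of 26 genes of excitation-contraction coupling, 20 were lower and 4 higher (median -3.22). Ryr1, the calcium release channel of skeletal muscle, read 6.80, 4.95, 6.50 and 5.48 in the aortas and 12.05 to 12.28 in the muscles (median 12.16). Its difference was -6.23 ± 0.26 for the chosen probe set and -3.89 averaged over its probe sets. Cacna1s, the voltage sensor that opens Ryr1, was lower (-5.37 ± 0.15), as was triadin, Trdn (-5.70 ± 0.17). The higher members were Sln (4.76 ± 0.20), Pln, Atp2a2 and Asph (0.53 ± 0.11, or 0.27 averaged over its probe sets), and the first 3 of these form the calcium pump system of the heart.

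At the neuromuscular junction 9 of 13 genes were lower and 2 higher (median -1.11). The receptor kinase Musk and the adult acetylcholine receptor subunit Chrne were each lower, both at -3.04 (SE 0.28 and 0.12), with dim aortas. Utrn, the dystrophin relative utrophin, was higher by 1.16 ± 0.13 and the adhesion molecule Ncam1 by 1.69 ± 0.14. In the dystrophin complex 9 of 13 were lower and 3 higher (median -0.49). Sgca, alpha-sarcoglycan, read 7.77, 8.06, 7.98 and 8.04 against 11.11 to 11.50 (median 11.30), a 10.2-fold difference (adjusted p = 8.41e-13), and its relative Sgce was higher by 0.69 ± 0.11. Dystrophin, Dmd, was lower (-0.90 ± 0.13).

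Of 21 myogenic regulators 18 were lower and 0 higher by limma at an adjusted p under 0.05, with a median of -1.79. Mstn, the secreted growth inhibitor myostatin, read 3.95, 3.85, 4.55 and 3.26 in the aortas, a dim level, and 9.72 to 10.87 in the muscles (median 10.19). Myf6, the MyoD relative of mature fibres, was lower (-6.03 ± 0.19), the homeobox cofactor Eya4 (-4.31 ± 0.16), Vgll2 (-3.60 ± 0.20) and the methyltransferase Smyd1 (-3.48 ± 0.09). The MEF2 factors were lower too, Mef2c (-2.51 ± 0.11), Mef2d (-0.87 ± 0.07) and Mef2a (-0.26 ± 0.07). Of 12 satellite cell markers 6 were lower and 2 higher (median -0.39), led by desmin, Des (-2.33 ± 0.08), which mature fibres also make.

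Many protein families held 1 form for each tissue. Among the actins, Acta2 read 12.34, 12.45, 12.35 and 12.21 in the aortas and 9.19 to 9.86 in the muscles (median 9.35), and Actg2, the enteric form, was higher by 2.90 ± 0.14. Acta1 was lower, and cardiac actin Actc1 showed no call (0.07 ± 0.25, adjusted p = 0.872) with high readings in both tissues, 11.83 to 12.31 and 11.11 to 12.61. Actin transcripts resemble one another closely, and binding of a probe to a relative was not tested. The non-muscle alpha-actinins Actn1 (3.19 ± 0.14) and Actn4 (1.65 ± 0.13) were higher where the sarcomeric Actn3 (-6.35 ± 0.24) and Actn2 were lower. All 3 calponins were higher, Cnn1 most, then Cnn2 (1.39 ± 0.14) and Cnn3 (1.36 ± 0.13). Filamin A, Flna, was higher by 3.03 ± 0.10 and the muscle filamin Flnc lower (-2.61 ± 0.12). The light chain kinases of smooth and heart muscle, Mylk (1.29 ± 0.13) and Mylk3 (1.37 ± 0.15), were higher and Mylk2, the skeletal kinase, was lower (-4.77 ± 0.12). Leiomodins showed the same split, Lmod1 at 1.20 ± 0.16 and Lmod3 at -3.94 ± 0.10, though Lmod1 differed by only 0.59 from the sternocleidomastoid.

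Calcium handling and membrane proteins did likewise. Atp2a1, the fast-fibre calcium pump, was lower (-5.37 ± 0.55) and Atp2a2 higher by 2.26 ± 0.12. Ryr2, the heart's release channel, was higher by 3.57 ± 0.16 with both muscles dim. It is a member of both the smooth muscle channel list and the heart list, and counts in each. Ryr3 had no call (-0.21 ± 0.10, limma adjusted p = 0.127). Casq1, the skeletal calsequestrin, was lower (-4.90 ± 0.11), and its cardiac partner Casq2 had no call (0.38 ± 0.41, adjusted p = 0.52). Among the caveolins, which shape membrane pits, Cav1 (1.07 ± 0.14) and Cav2 (1.01 ± 0.16) were higher and the muscle form Cav3 was lower (-1.94 ± 0.14). Of the phosphatase subunits that target myosin, Ppp1r12a was higher by 1.68 ± 0.10 and Ppp1r12b lower (-0.72 ± 0.08).

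**Figure D3:**
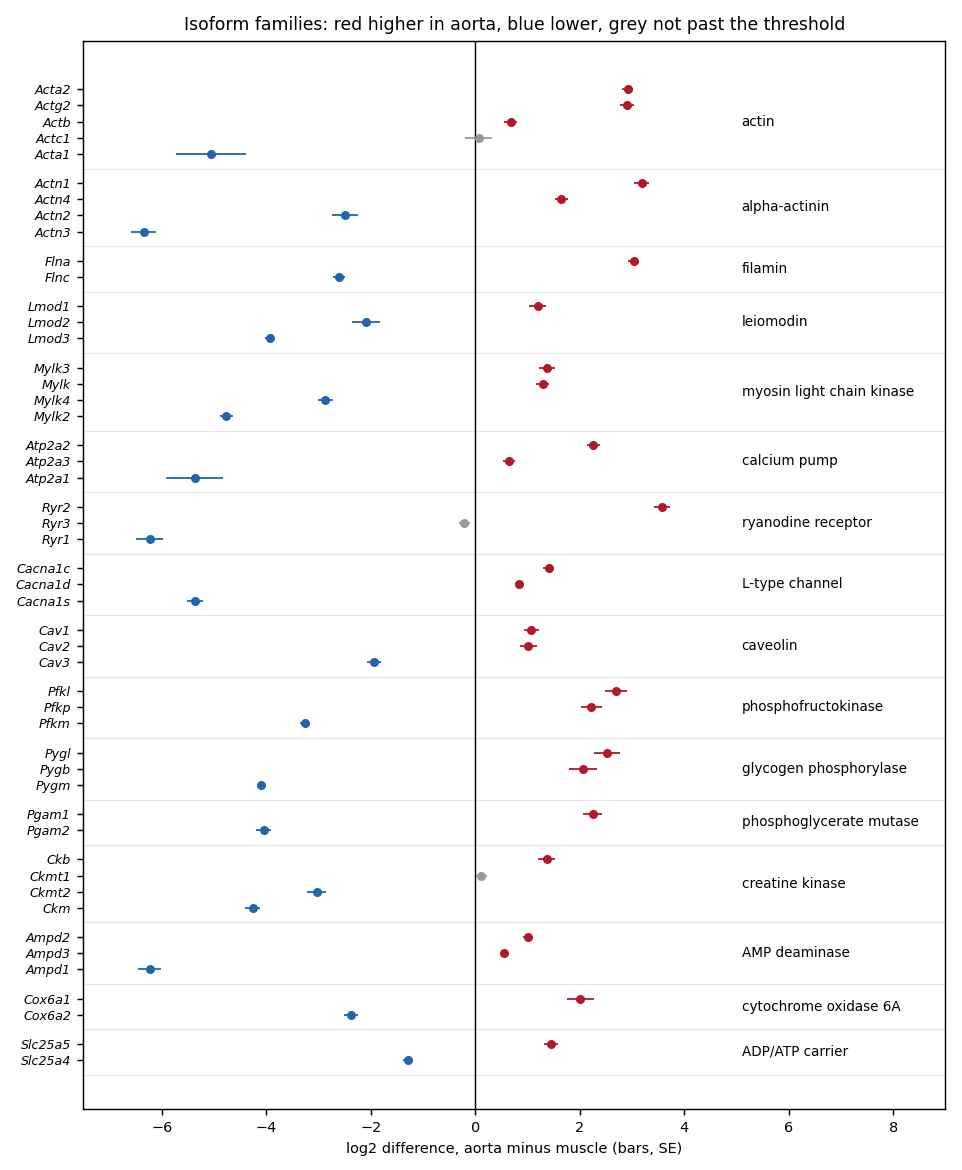
Aorta minus muscle difference (points, log2) with its standard error (bars) for members of 16 protein families, red where higher in aorta, blue where lower and grey where the adjusted p was not under 0.05. In the phosphofructokinases Pfkl lies at 2.69 and Pfkm at -3.26, and in the ryanodine receptors Ryr2 lies at 3.57 and Ryr1 at -6.23.

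Enzymes of energy metabolism also differed by form. Of 21 glycolysis genes 8 were higher and 11 lower (median -0.27). Pfkm, muscle phosphofructokinase, read 8.58, 8.72, 8.76 and 9.01 in the aortas and 11.77 to 12.16 in the muscles (median 12.05). The liver form Pfkl read 10.24, 9.85, 10.26 and 10.06 against 6.56 to 8.32 (median 7.22), and both were free of overlap. The brain and muscle forms of phosphoglycerate mutase split in the same way, Pgam1 at 2.25 ± 0.18 and Pgam2 at -4.05 ± 0.14. The other probe set of Pgam1 differed by less, 0.91 ± 0.13, in the same direction. Eno3, the muscle enolase, was lower (-2.84 ± 0.12). The lactate exporter Slc16a3 was lower (-3.02 ± 0.19), and the importer Slc16a1 (1.33 ± 0.10) and heart lactate dehydrogenase Ldhb (1.18 ± 0.15) were higher, Ldhb by 0.66 against the sternocleidomastoid alone. Pfkl and the fat markers described further on were both highest in quadriceps 4 among the quadriceps and lowest in sternocleidomastoid 3 among the neck muscles. Pfkl read 6.56, 6.81, 6.89 and 7.4 in quadriceps 1 to 4 and 8.21, 8.05, 7.04 and 8.32 in the sternocleidomastoid. The general adipocyte mean was 8.88, 9.10, 8.68 and 10.56 in the same quadriceps and 9.87, 9.98, 9.10 and 9.85 in the sternocleidomastoid. The part of fat in these differences was not tested.

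Of 21 phosphagen and glycogen genes 14 were lower and 6 higher (median -1.40). Ckm, the muscle creatine kinase that buffers ATP, read 8.97, 7.98, 8.75 and 8.56 against 12.64 to 12.93 (median 12.86), a 19.2-fold difference (adjusted p = 1.56e-11). Ckmt2 was lower (-3.04 ± 0.19) and the brain form Ckb higher by 1.37 ± 0.16. Muscle glycogen phosphorylase, Pygm, was lower (-4.09 ± 0.09), and the liver and brain forms Pygl (2.52 ± 0.24) and Pygb (2.06 ± 0.26) were higher. Among the muscles Pygb was highest in quadriceps 4 (8.36), the muscle sample with the highest general adipocyte mean. Pygl was lower in sternocleidomastoid 3 (6.6) than in the others of its group (7.26 to 7.81), as that mean was, and the part of fat was not tested here either. Among AMP deaminases Ampd1 was lower (-6.23 ± 0.22), and Ampd2 (1.01 ± 0.09) and Ampd3 (0.56 ± 0.07) were higher.

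Genes of mitochondrial fat burning were mostly higher in aorta. Of 34 genes of the citric acid cycle and fatty acid oxidation, 27 were higher and 1 lower (median 0.80), 13 of them at least 2-fold. Slc25a20, which carries acylcarnitines into mitochondria, read 11.06, 11.10, 11.06 and 11.17 in the aortas, 9.17, 9.11, 9.11 and 9.21 in the quadriceps, and 9.63 to 10.20 in the sternocleidomastoid. The difference was 1.55 ± 0.09, without overlap. The dehydrogenases Acadl (1.45 ± 0.12) and Acads (1.39 ± 0.11), the thiolase Acaa2 (1.36 ± 0.11) and the fatty acid receptor Ppara (1.78 ± 0.16) were also higher. Respiratory chain genes differed less, 17 of 33 higher and 1 lower with a median of 0.19, and 0 of them 2-fold. That count fell to 11 with median centring and to 8 with housekeeping centring. The subunit pair Cox6a1 and Cox6a2 split by tissue, at 2.01 ± 0.26 and -2.38 ± 0.14, as did the carriers Slc25a5 (1.45 ± 0.14) and Slc25a4 (-1.29 ± 0.09). The list mean of the citric acid cycle and fatty acid oxidation was 11.08 to 11.21 in the aortas, 10.07 to 10.22 in the quadriceps and 10.34 to 10.75 in the sternocleidomastoid. Brown fat markers stood in the same order, with list means of 9.47 to 9.80, 6.83 to 7.68 and 7.94 to 8.78, and their part in the result was not tested.

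Markers of several other tissues were high in the aortas. Heart muscle genes were higher in 14 of 18 cases with 0 lower by limma at an adjusted p under 0.05 (median 2.91), and the list mean was 8.67 to 9.18 in the aortas against 6.02 to 6.35 in the muscles. All 4 aortas carried this signal. Myl7 read 11.14, 11.45, 10.94 and 11.78 in the aortas and a dim 4.58 to 5.1 in the muscles (median 4.75). Tnni3 read 10.09, 10.15, 9.84 and 10.78 against 4.90 to 5.49 (median 5.16). Tnnt2, cardiac troponin T, read 11.73, 11.85, 11.53 and 12.16 against 6.72 to 7.43 (median 7.08). These values left a wide gap between the tissues, and aorta 4 was the highest of the aortas for each of the 3 genes. The alpha-myosin heavy chain Myh6 (4.78 ± 0.13), Sln, Mybphl (3.68 ± 0.19) and Mybpc3 (1.78 ± 0.17) were higher as well. The gap junction protein Gja1, which smooth muscle also makes, was higher by 2.25 ± 0.11, and the natriuretic peptide Nppb by 0.58 ± 0.13 while dim in every group. Myl3, a light chain of slow muscle and ventricle, had no call (-0.24 ± 0.29, limma adjusted p = 0.569).

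The genes that tell heart chambers apart were uneven. The atrial markers Myl7, Sln, Mybphl and Nppa, the atrial natriuretic peptide (4.12 ± 0.11), were high. Myl4, the atrial essential light chain, read only 6.97 to 7.56 in the aortas and was higher by 0.73 ± 0.18. Myl2, the ventricular light chain, read 5.83, 5.47, 5.75 and 5.51 and was lower than in muscle by 0.45 ± 0.14 (adjusted p = 0.0211), with overlap. The ventricular factor Irx4 was dim in every group (-0.05 ± 0.11, adjusted p = 0.763), the pacemaker channel Hcn4 was dim too (-0.26 ± 0.14, adjusted p = 0.163), and the heart factor Nkx2-5 had no call (0.18 ± 0.09, adjusted p = 0.137). Which tissue supplied the heart transcripts was not tested.

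Brown fat genes were higher in 11 of 15 cases with 1 lower (median 1.40), but here the muscles differed from each other. Ucp1, the uncoupling protein that makes heat in brown fat, read 12.77, 12.67, 12.78 and 12.86 in the aortas. It read 4.68, 4.89, 4.89 and 9.07 in quadriceps 1 to 4 and 11.54, 11.64, 9.99 and 11.73 in the sternocleidomastoid. The aortas were the highest, the neck muscle came next and 3 of the 4 quadriceps were dim. The difference was 4.22 ± 0.66 over both muscles (limma adjusted p = 0.000118). It was 6.89 against quadriceps (limma adjusted p = 5.65e-06) and 1.55 against sternocleidomastoid (limma adjusted p = 0.138). The fit shares a single spread per gene among the groups. The standard deviation was 0.078 in aorta, 2.125 in quadriceps and 0.826 in sternocleidomastoid, so the last p-value also reflects the quadriceps. Every aorta lay above every sternocleidomastoid sample. Cidea, a lipid droplet protein, showed the same order with aortas at 11.89 to 12.19, and differed by 5.58 from quadriceps and by 1.92 from sternocleidomastoid (adjusted p = 0.0469).

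Elovl3, a fatty acid elongase induced by cold, read 9.79, 9.08, 9.41 and 10.76 in the aortas, 4.04 to 4.36 in the quadriceps and 5.28 to 7.49 in the sternocleidomastoid. Slc27a2 (3.80 ± 0.37), the proton channel Otop1 (3.32 ± 0.31), Pank1 (2.53 ± 0.19), the thyroid hormone activating enzyme Dio2 (2.41 ± 0.32), Ebf2 (1.40 ± 0.15) and Prdm16 (1.09 ± 0.09) were higher too. Averaged over its probe sets Slc27a2 differed by 2.17, Dio2 by 1.53, Ebf2 by 0.76 and Prdm16 by 0.66. Genes that brown fat shares with muscle did not follow. Fabp3 (adjusted p = 0.976), Cox7a1 (adjusted p = 0.986) and Ppargc1a (0.13 ± 0.20, adjusted p = 0.643) had no call. The 1 lower member was Zic1, a zinc finger factor, at -0.88. It read 5.49, 5.24, 5.28 and 4.88 in the aortas, 5.32 to 5.83 in the quadriceps and 6.49 to 7.22 in the sternocleidomastoid, so that it overlapped the thigh muscle. Cox8b (0.28 ± 0.07) and Lhx8 (0.43 ± 0.12, dim in every group) were higher by small amounts.

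General fat cell genes were higher in 18 of 20 cases with 1 lower (median 1.75), a count that fell to 9 when all 19 arrays were fitted. Pparg, the master factor of fat cells, read 11.17, 11.13, 11.16 and 11.21 in the aortas, 7.55, 7.63, 7.31 and 9.49 in the quadriceps, and 9.34, 9.58, 8.08 and 9.28 in the sternocleidomastoid. The gluconeogenic enzyme Pck1 (2.93 ± 0.55), the lipogenic Acly (2.82 ± 0.37), Cebpa (2.50 ± 0.41) and the droplet coat Plin1 (2.50 ± 0.41) followed. The list mean was 11.07 to 11.23 in the aortas, 8.68 to 9.10 in quadriceps 1 to 3, 10.56 in quadriceps 4 and 9.10 to 9.98 in the sternocleidomastoid. Slc2a4, the insulin-responsive glucose transporter of both fat and muscle, was lower (-0.51 ± 0.07). Whether fat around the vessel and between the muscles set these levels was not tested.

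**Figure D4:**
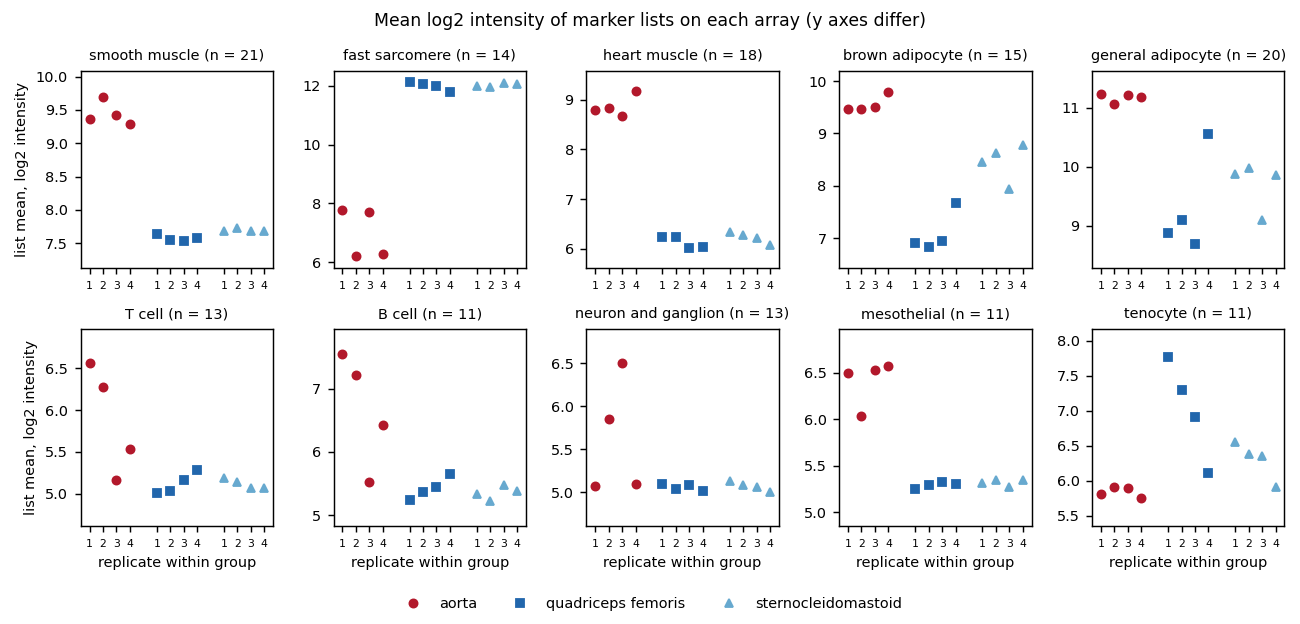
Mean log2 intensity of 10 marker lists on each array, replicates 1 to 4 of aorta (circles), quadriceps (squares) and sternocleidomastoid (triangles), with a y axis of its own in each panel. The fast sarcomere mean is 7.79 and 7.71 in aortas 1 and 3 and 6.20 and 6.27 in aortas 2 and 4, the B cell mean runs from 5.52 to 7.54 among the aortas, and the general adipocyte mean of quadriceps 4 is 10.56.

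Lymphocyte genes were higher in aorta, with the highest list means in aortas 1 and 2. Of 11 B cell markers 10 were higher with 0 lower by limma at an adjusted p under 0.05 (median 1.48). For 5 of them every aorta lay above every muscle, beside 14.6% of all genes. Of 13 T cell markers 8 were higher and 1 lower (median 0.53). Cd79b, part of the B cell receptor, read 8.98, 8.31, 6.15 and 6.89 in aortas 1 to 4 and 4.78 to 5.83 in the muscles (median 5.49). Cd3g, part of the T cell receptor, read 8.07, 8.17, 4.83 and 6.15 against 3.75 to 5.22 (median 4.38), so that aorta 3 overlapped the muscles. Without aortas 1 and 2, a choice made after seeing the data, 4 B cell and 4 T cell markers were higher. Cd79b then differed by 1.07 in place of 2.13 and Cd3g by 1.05 in place of 2.37. Both genes read higher in aortas 1 and 2, so these smaller differences follow from leaving those out. The calls of Cd3e (0.28, limma adjusted p = 0.24) and Cr2 (0.71, limma adjusted p = 0.0544) were lost. Cd28 was lower in aorta by 0.72 ± 0.13. The part of lymphocytes in other aortic differences was not tested.

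Myeloid and antigen-presenting genes differed by less. Of 20 macrophage markers 8 were higher (median 0.34), led by the lysozyme Lyz2 at 10.63, 10.22, 10.25 and 10.18 against 8.77 to 9.75 (1.06 ± 0.16). Without aortas 1 and 2 only 2 were counted, and without aortas 1 and 3 only 3. Of 7 class II genes 5 were higher (median 0.84), with H2-Eb1 at 1.27 ± 0.20 and overlap through quadriceps 4. Mast cell markers gave 1 of 10 higher, Kit (0.61 ± 0.16), beside 22.2% of all genes.

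Nerve and lining genes showed further differences among aortas. Of 13 neuron and ganglion markers 5 were higher (median 0.62). Th, the enzyme that starts noradrenaline synthesis in sympathetic neurons, read 5.54, 6.62, 7.72 and 5.52 in aortas 1 to 4 and 5.39 to 5.68 in the muscles. Its difference of 0.81 ± 0.31 (adjusted p = 0.0496) was lost without aorta 3 (0.36, adjusted p = 0.159). Snap25, a synaptic protein, read 4.57, 6.27, 7.24 and 4.52 and did the same (0.59, adjusted p = 0.132). Without aorta 1 the list gave 10 higher members, without aorta 4 it gave 9, and without aorta 2 or aorta 3 it gave 1. Mesothelial markers, of the lining that covers organs of the chest, were higher in 10 of 11 cases (median 0.65). Upk1b read 7.86, 6.78, 7.93 and 7.71 in the aortas and a dim 4.73 to 5.01 in the muscles (median 4.92), a difference of 2.66 ± 0.17. Schwann and nerve markers gave 4 of 12 higher and 1 lower, led by S100b (2.06 ± 0.18), which fat cells also express. Their list mean was 6.25, 6.20, 6.39 and 6.26 in aortas 1 to 4, so aorta 2 was not high there. Of 15 cartilage markers 4 were lower and 2 higher (median 0.00), led by Sox6 (-1.65 ± 0.09). The counts of both lists stand beside 22.2% higher and 17.9% lower among all genes.

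The Hox genes are homeobox factors that are expressed in order from head to tail. Of 36 measured, 12 were higher and 8 lower in aorta (median 0.02), beside 22.2% and 17.9% of all genes, so the counts alone do not set the list apart. Hoxa5 read 7.46, 7.95, 7.91 and 7.92 in the aortas and 6.15 to 7.41 in the muscles (median 6.53), a difference of 1.17 ± 0.16. Hoxb4 (1.10 ± 0.12), Hoxb6 (0.74 ± 0.10), Hoxb5 (0.72 ± 0.11) and Hoxb3 (0.66 ± 0.10) were higher without overlap, Hoxb5 by 0.39 when averaged over its probe sets. Hoxd8 was lower (-1.37 ± 0.14) against both muscles together.

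For other Hox genes the answer depended on the muscle. Hoxc10 read 4.97, 4.71, 4.99 and 4.87 in the aortas, 8.54, 8.51, 8.72 and 8.47 in the quadriceps and 5.24, 4.98, 5.0 and 4.85 in the sternocleidomastoid. It differed by -3.67 from quadriceps (adjusted p = 5.03e-12) and by -0.13 from sternocleidomastoid (adjusted p = 0.364), and its call over both muscles was lost when they were not split (adjusted p = 0.0792). Hoxc9, Hoxa9 and Hoxa10 were dim in aorta and sternocleidomastoid alike. Hoxc6 lay in between, with aortas at 6.67 to 7.0, quadriceps at 7.42 to 7.99 and sternocleidomastoid at 4.27 to 4.93. It was lower than quadriceps by 0.89 and higher than sternocleidomastoid by 2.31.

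**Figure D5:**
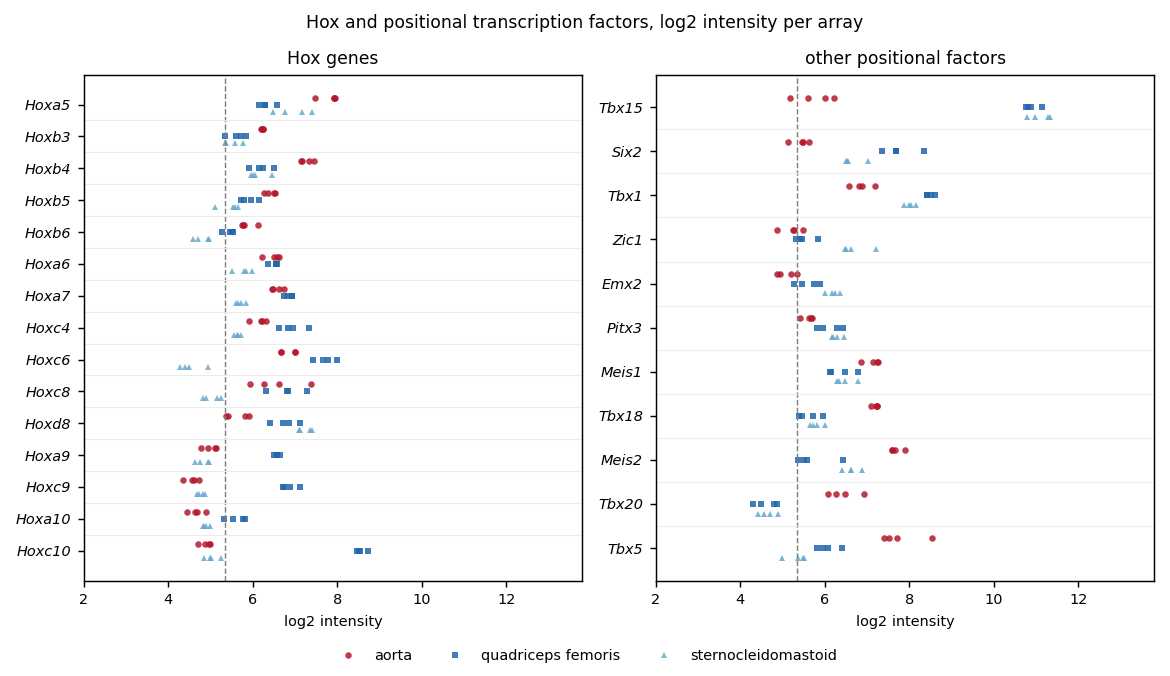
Log2 intensity on each array for 15 Hox genes (left) and 11 other positional factors (right) in aorta (circles), quadriceps (squares) and sternocleidomastoid (triangles), with the lowest array median, 5.35, as a dashed line. Hoxc10 lies at 8.47 to 8.72 in the quadriceps and at 4.71 to 5.24 in the other groups, and Tbx15 at 5.18 to 6.22 in the aortas and 10.75 to 11.32 in the muscles.

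Of 21 other positional factors 8 were lower and 6 higher (median -0.19), beside 17.9% and 22.2% of all genes. Tbx15, a T-box factor of fast fibres, read 6.00, 5.18, 6.22 and 5.6 against 10.75 to 11.32 (median 10.92), a 37.9-fold difference (adjusted p = 1.3e-11). Six2 (-1.79 ± 0.16) and Tbx1, a factor of head and neck muscle (-1.40 ± 0.10), were lower. Tbx5 (2.09 ± 0.19) and Tbx20 (1.80 ± 0.15), which are known from the heart, were higher with dim muscles for Tbx20, as were Meis2 (1.51 ± 0.17) and Meis1 (0.70 ± 0.14). Tbx5 was highest in aorta 4 at 8.54, the aorta with the highest heart list mean. Tbx5 is itself a member of that list, so the match is partly built in, and its source was not tested.

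Precursors of microRNAs, the short RNAs that silence messages by their seed, closed the comparison. Of 50 measured precursor genes 13 were higher and 5 lower (median 0.04), beside 22.2% and 17.9% of all genes, and 36 were dim in all groups. The array reads the precursor or its host transcript and not the mature form. The mature sequences below, from RefSeq, GRCm38.p6, are shown for 2 precursors that were higher without overlap and for 2 that share a seed. Capitals mark the seed, bases 2 to 8.
mmu-miR-193b-3p: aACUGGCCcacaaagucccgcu
mmu-miR-365-3p: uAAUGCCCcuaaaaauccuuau
mmu-miR-99a-5p: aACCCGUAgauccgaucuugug
mmu-miR-100-5p: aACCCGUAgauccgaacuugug
The mature sequences of the first pair lie close together, at chr16:13449570-13449591 and chr16:13453895-13453916 on the plus strand. Mir365-1 read 6.42, 6.92, 6.90 and 6.63 in the aortas and 4.72 to 5.51 in the muscles (median 5.16), a difference of 1.62 ± 0.16. Mir193b differed by 1.40 ± 0.18 without overlap. Mir99a (0.58 ± 0.14) and Mir100 (0.38 ± 0.10), whose mature 5p forms share the seed ACCCGUA, were both higher, but each overlapped the muscles.

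Of the precursors with the largest differences, 1 known smooth muscle cluster lay on the aortic side. Mir145a, a smooth muscle microRNA, read 7.01, 7.81, 7.43 and 6.29 in the aortas and a dim 3.07 to 4.70 in the muscles (median 3.70), a difference of 3.38 ± 0.28 (adjusted p = 3.08e-07). Its cluster partner Mir143 read 7.77, 8.03, 7.88 and 6.66 against 5.19 to 6.06 (median 5.76), a difference of 1.85 ± 0.22. Aorta 4 was the lowest for both. Mir378a, which lies in a gene of mitochondrial metabolism, was higher by 2.26 ± 0.20 for the chosen probe set and by 1.15 averaged over its probe sets, the other of which had no call (limma adjusted p = 0.803). On the muscle side stood the striated muscle microRNAs, with Mir133a-1 lower (-2.83 ± 0.25), Mir1a-1 (-2.47 ± 0.32) and Mir133a-2 (-2.33 ± 0.22), all dim in the aortas. The heart precursors Mir208a and Mir208b were dim in every group (adjusted p = 0.847 and 0.528).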

How the data were processed

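RNA from 12 wild type tissue samples was measured on mouse Affymetrix arrays. Per the labels' protocols, RNA was extracted with a column kit and labelled by the standard Affymetrix method. The deposited values are on a log2 scale. Partek 6.6 is named per the submitters' processing notes. Its role is not stated there, and background correction and normalization were not given in the sources available here. The authors' values were used without further scaling. Of 41345 probe sets, 23521 carried a single symbol, 1814 several and 16010 none. Each gene was read from its brightest probe set, by the mean of 19 arrays, leaving 22180 genes, 1082 of them with more than 1 probe set. limma 3.58.1 in R 4.3.3 fitted 3 group means to the 12 arrays, and aorta was set against the average of both muscles. Adjusted p-values are Benjamini-Hochberg values over all genes. Tested on simulated data with 22180 genes, the fit recovered 93% of 100 differences of 1 log2 unit and 55% of 100 differences of 0.5, with 5 false calls. The simulated noise was independent with the same spread in all groups, and no other genes were changed. In the real arrays 40.1% of genes were called and spreads could differ between groups, so these rates may not carry over. The number of arrays limits the precision.

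Members and lists were chosen with earlier results of these data known. Names in the text come from a rule-based list of 475 genes. It holds the 15 largest non-overlapping differences in each direction, up to 5 members of each list with the largest differences past the threshold in each direction (the 2 largest where none passed), every member of the isoform families, and every member of the heart, brown adipocyte, Hox, positional, clock and microRNA lists. Not all of them are printed. Those shown were picked from that list with their values known, and the rest enter only the counts. The alternatives were all 19 arrays, 3 scalings, dim genes left out, the mean over probe sets, a trended robust fit, unsplit muscles, group weights, stricter thresholds, each muscle alone and each array left out. Leaving out aortas 1 and 3, or 1 and 2, was chosen after seeing the data. Tables were made with pandas 2.3.3 and plots with matplotlib 3.10.9, in Python 3.11.15.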

Additional observations from a re-analysis of the deposited data

Results flagged for a closer look

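Of 243 groups of 4 samples looked at, 18 had 1 sample far from the other 3 (7.41%), where chance alone gives about 1 in 20. Among the aortas, aorta 4 had the lowest list mean of elastic fibre genes (7.96, others 8.23 to 8.27) and of collagens (7.05, others 7.4 to 7.43). It had the highest mean of oxidative phosphorylation genes (10.71, others 10.59 to 10.60) and of brown adipocyte genes (9.80, others 9.47 to 9.51). Aorta 2 was high in vasoactive genes (7.36, others 7.21 to 7.23) and in Kcnmb1 (10.82, others 9.90 to 9.99), and low in mesothelial markers (6.04, others 6.50 to 6.57). Aorta 1 was high in endothelial markers (8.03, others 7.91 to 7.93).

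Quadriceps 4 stood above the other quadriceps in brown adipocyte markers (7.68, others 6.83 to 6.95), macrophage markers (7.49, others 6.66 to 6.80) and complement genes (7.46, others 6.48 to 6.61). It was also high in Ucp1 (9.07, others 4.68 to 4.89), in the signalling regulator Rgs7 (6.70, others 4.26 to 4.43) and in Slc27a2 (6.44, others 5.14 to 5.22). In the sternocleidomastoid, sample 3 was low in general adipocyte markers (9.10, others 9.85 to 9.98) and in Ucp1 (9.99, others 11.54 to 11.73). Sample 4 was low in Z-disc genes (10.53, others 10.66 to 10.68), and sample 2 in Pvalb (12.69, others 12.81 to 12.82).

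For 12 genes aorta was higher than 1 muscle and lower than the other, each past the threshold. The muscles themselves then differed by limma (adjusted p from 1.13e-07 to 0.00626). That follows from the choice of genes and is no further result, since this difference is the one between the aorta comparisons in the same fit. The sternocleidomastoid minus quadriceps difference was -3.20 for Hoxc6, -1.30 for Hoxc4 and -1.17 for Hoxa7. It was -2.21 for the actin regulator Mical2, -1.54 for Rhbdl1, -0.77 for Tecr and -0.59 for the peptide Nmb. It was 1.66 for Lgi1, 1.43 for Gm5532, 1.24 for Zdhhc23, 0.93 for the calcineurin inhibitor Rcan2 and 0.91 for Slc22a23. Of these, Mical2, Rhbdl1, Tecr, Nmb, Lgi1, Gm5532, Zdhhc23, Rcan2 and Slc22a23 were named for this opposition, after their values were seen.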

How the results depend on the processing

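Of the 475 genes on the list from which names were taken, printed or not, 400 passed the threshold, and 294 passed it with the same sign under every alternative other than a minimum size. A 2-fold minimum left 1084 higher and 942 lower genes in aorta minus muscle, 1202 and 1000 against quadriceps, 989 and 902 against sternocleidomastoid, and 54 and 26 between the muscles. It left 9 elastic fibre, 2 endothelial, 0 oxidative phosphorylation and 13 citric acid cycle and fat oxidation genes higher, and 11 myogenic regulators lower. Between the muscles 175 genes were higher in sternocleidomastoid and 104 lower. These counts were 52 and 44 with all 19 arrays and 79 and 50 at an adjusted p under 0.01. The oxidative phosphorylation count was 6 with all 19 arrays, 11 with median centring, 8 with housekeeping centring, 11 at the stricter p and 7 against sternocleidomastoid alone, and general adipocyte genes fell to 9 with all 19 arrays. Against quadriceps alone the direction turned for Hoxa6 (-0.03), Hoxa7 (-0.29), Hoxc6 (-0.89) and Hoxc8 (-0.25), and against sternocleidomastoid alone for Hoxa9 (0.16), Hoxc11 (0.10) and Hoxc4 (0.52). The cause was not tested.

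Leaving out each array in turn gave 4451 to 4910 higher and 3565 to 4005 lower genes, and 107 to 340 and 63 to 155 between the muscles. Neuron markers ranged from 1 to 10, macrophage markers from 5 to 13, complement genes from 4 to 11, collagens from 7 to 12 and fibroblast markers from 1 to 5. No paired analysis was possible because the labels carry no replicate numbers. Values near the array medians limit the size of a difference, and whether they also affect its direction was not tested. Of 1082 genes with several probe sets, 20 had probe sets called in opposite directions.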

Other observations

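Clock genes differed between the tissues. Of 17 measured, 9 were lower and 3 higher in aorta (median -0.33), beside 17.9% and 22.2% of all genes. Bhlhe41, a repressor of the clock, read 6.24, 7.04, 6.67 and 6.87 in the aortas and 7.80 to 8.86 in the muscles, a difference of -1.70 ± 0.20 without overlap. Rora, an activator of the loop, differed by -1.36 ± 0.08 and the core factor Arntl by -0.91 ± 0.15, while its partner Clock differed by 0.38 ± 0.07. Per1 (adjusted p = 0.299 by limma), Nr1d1 (0.924), Ciart (0.711) and Per3 (0.12) had no call. The labels used here give no time of collection, and the lower count was 4 without aortas 1 and 2.

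Complement genes were higher in 9 of 15 cases and lower in 1 (median 0.45). C4b read 8.44, 8.11, 8.24 and 8.69 in the aortas, 6.43, 6.02, 6.50 and 8.35 in the quadriceps and 6.42 to 7.06 in the sternocleidomastoid, a difference of 1.55 ± 0.32. Quadriceps 4 reached the aortas. Cd59a, which protects cells from complement, was higher by 0.96 ± 0.10 without overlap. Of 14 mitosis genes 3 were higher and 1 lower, with Top2a at 0.63 and Aurka at -1.0. Among all genes 22.2% were higher and 17.9% lower, so these counts do not set the list apart.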
